A study of Mus musculus with 6 samples.

Results

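In macrophages grown from mouse bone marrow, chromatin that already carried the enhancer mark H3K4me1 before stimulation was described here by how much PU.1 it held before and after 2 h of lipopolysaccharide (LPS). The regions were the deposited H3K4me1 peaks of untreated cells on chromosomes 1 to 19 and X, joined where they lay less than 1 kb apart. The 84743 peaks gave 49518 regions, and the 23325 regions (47.1%) with at least 40 PU.1 reads over the untreated and the LPS library together were kept. All cells came from female Fvb mice and were at day 7 of differentiation in medium conditioned by L929 cells. They were untreated or given LPS at 10 ng/ml. Chromatin immunoprecipitation with sequencing (ChIP-seq) located PU.1 in 1 library per condition. H3K4me1 and unprecipitated input DNA had 1 untreated library each, and p300 had 2 replicates per condition. The series' design text calls these p300 replicates biological, and both were deposited as read files of a single sample per condition. The number of animals behind a library was not given in the sources used here.

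PU.1 is an ETS-family transcription factor needed for the macrophage lineage, and it binds widely across the genome of these cells, mostly away from promoters. H3K4me1 is laid down on nucleosomes around enhancers, active or poised, and a bound factor typically sits in the gap between marked nucleosomes. LPS is recognised through Toll-like receptor 4 and starts the inflammatory gene programme. p300 is a histone acetyltransferase found at active enhancers.

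The PU.1 libraries held 5828606 distinct reads (untreated) and 6066579 (LPS), and 24.6% and 18.5% of their aligned reads repeated a position already seen. With 1 library per condition there was no test across libraries. Each ratio carries an exact 95% Clopper-Pearson interval conditional on the summed reads, which covers counting error only, and every difference below is between 2 libraries. A region was called past 2-fold when its whole interval lay above 2 or below 1/2. The header of the untreated PU.1 peak list names LPS, but its list-specific peaks held 205568 untreated and 112879 LPS reads. The peaks specific to the LPS list held 99883 and 209138. Each list thus went with the reads of its own sample, and the lists were taken as the sample labels name them. These counts cannot show which sample was given LPS, which rests on the labels. Gene annotation of the build of these files was not used here, so regions are given by mm9 coordinates, without gene names or a check of cell type markers.

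Much of the PU.1 signal of both libraries lay in chromatin that was marked before LPS. Over all 49518 regions, before any choice by PU.1 reads, the share was 40.1% of untreated and 37.3% of LPS PU.1 reads, against 8.63% of input reads. The kept regions, chosen for their PU.1 reads, spanned 61.6 Mb. They held 37.2% of the untreated and 34.4% of the LPS PU.1 reads, against 6.93% of the input reads. A PU.1 site, meaning a peak of either list or overlapping peaks of both, had its centre in 21836 of the 23325 regions (93.6%). The minimum of 40 PU.1 reads favours such regions, and over all 49518 regions 27752 (56.0%) held a site centre. These sites covered 27.6% of the regions' width and took 84.3% of their PU.1 reads in either library. Input placed 32.7% of its reads in the same sites. Within H3K4me1 domains the share of PU.1 reads at sites was thus the same in both libraries to 3 digits. The sites join peaks called from these same 2 libraries, which favours a high share in both, so the values are a description.

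The threshold of 40 reads mostly removed narrow regions. Kept regions had a median width of 1942 bp and the 26193 others one of 592 bp. The 1402 regions with 35 to 39 reads had a median width of 1083 bp and a PU.1 site in 70.8% of cases. The 1216 regions with 40 to 44 reads had a median of 1146 bp and a site in 75.7%. Their median log2 ratios, LPS to untreated, were -0.00 and 0.01.

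Most of the kept H3K4me1 regions held nearly the same number of PU.1 reads in both libraries. The median was 61 untreated and 59 LPS reads per region. After scaling to the median ratio of the regions, 22341 regions (95.8%, exact interval 95.5 to 96.0) had a ratio within 2-fold. The interval excluded a ratio of 1 in 2444 regions on the higher side (10.5%) and in 1982 on the lower side (8.50%). Called past 2-fold were 82 regions higher in the LPS library (0.352% of regions) and 7 lower (0.0300%). At a bound of 1.5-fold the counts were 313 (1.34%) and 58 (0.249%).

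The split between higher and lower calls rested on how the libraries were scaled. LPS reads in the kept regions were 0.952 times the untreated reads at the median, while all distinct reads gave a ratio of 1.04 and reads in background bins without peaks one of 1.14. With distinct reads as the scale, 50 regions were called higher and 12 lower, and the median log2 ratio was -0.13. With background bins the counts were 32 and 23, and the median was -0.26. A higher or lower region below is therefore one that stands apart from the median region, not from an absolute level.

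**Figure D1:**
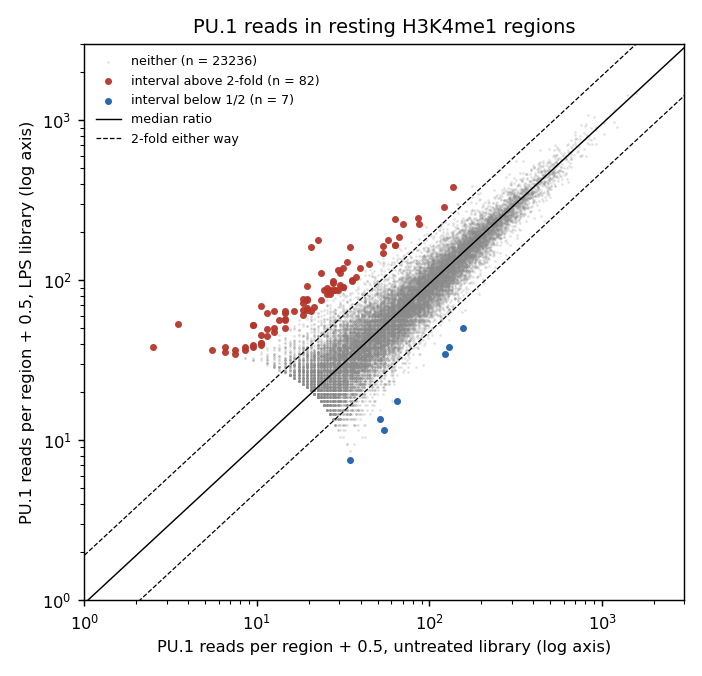
PU.1 reads of each kept H3K4me1 region in the untreated library (x axis) and the LPS library (y axis), both log axes with 0.5 added. Most points lie between the dashed 2-fold lines, with 82 regions called higher (red) and 7 lower (blue).

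The region with the highest lower bound was chr12:27140665-27141196. It had 3 untreated and 53 LPS reads, a ratio of 18.6 (6.02 to 92.9), within 532 bp of marked chromatin. Its PU.1 site was in both lists and ran past the region at each end. Over the whole site there were 16 and 87 reads, a ratio of 5.71 (3.33 to 10.4), so part of the size of the first ratio came from where the marked region ends. p300 in this region had 5 and 2 reads in untreated replicates 1 and 2, and 15 and 70 in the replicates given LPS.

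At chr5:92777008-92779139, the untreated library had 22 PU.1 reads and the LPS library 177 (ratio 8.45, 5.41 to 13.8). This region held 2 PU.1 sites. The first was in both lists, with 20 and 149 reads, and the second in the LPS list alone, with 5 and 68 reads. A site already listed before LPS and one listed only after it thus lay in a single marked domain, and both were several-fold higher in the LPS library. p300 had 9 and 11 untreated and 45 and 180 LPS reads there.

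At chr16:24766076-24767272, PU.1 went from 20 to 160 reads (ratio 8.40, 5.26 to 14.1), nearly all of them in 1 site found in both lists. At chr7:129609370-129609685 the counts were 2 and 38 (ratio 20.0, 5.16 to 171). That region is only 316 bp wide and covers part of a site found in both lists, which had 20 and 78 reads in all (4.10, 2.48 to 7.07). p300 was higher with LPS in both replicate pairs at these regions. Its counts, in the order untreated 1 and 2 and LPS 1 and 2, were 5, 5, 14 and 34 on chromosome 16 and 2, 1, 19 and 57 on chromosome 7.

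At chr6:100752498-100753026 the p300 counts were different. PU.1 had 10 reads untreated and 69 with LPS (ratio 7.25, 3.71 to 15.8), and its site was in the LPS list alone. p300 had 4 and 3 untreated and 2 and 5 LPS reads, beside 4 input reads, so it stayed at a handful of reads in all 4 replicates. At chr7:53979199-53979687, PU.1 counts were 23 and 110 (ratio 5.02, 3.18 to 8.26) and p300 counts 2, 3, 4 and 10 in the same order of libraries. A large PU.1 difference was thus found in marked regions with much p300 after LPS and in regions with little.

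The remaining named higher regions were chr18:65487905-65489359 and chr13:35171030-35172752. PU.1 counts in the first were 34 untreated and 162 with LPS (ratio 5.01, 3.44 to 7.48), and in the second 11 and 62 (5.92, 3.09 to 12.5). Among all 82 higher regions the ratio ranged from 2.49 to 20.0 with a median of 4.06. The untreated library had a median of 20 reads in them (2 to 136) and the LPS library 76 (34 to 383). They lay on 19 of the 20 chromosomes, with at most 9 on 1 chromosome.

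**Figure D2:**
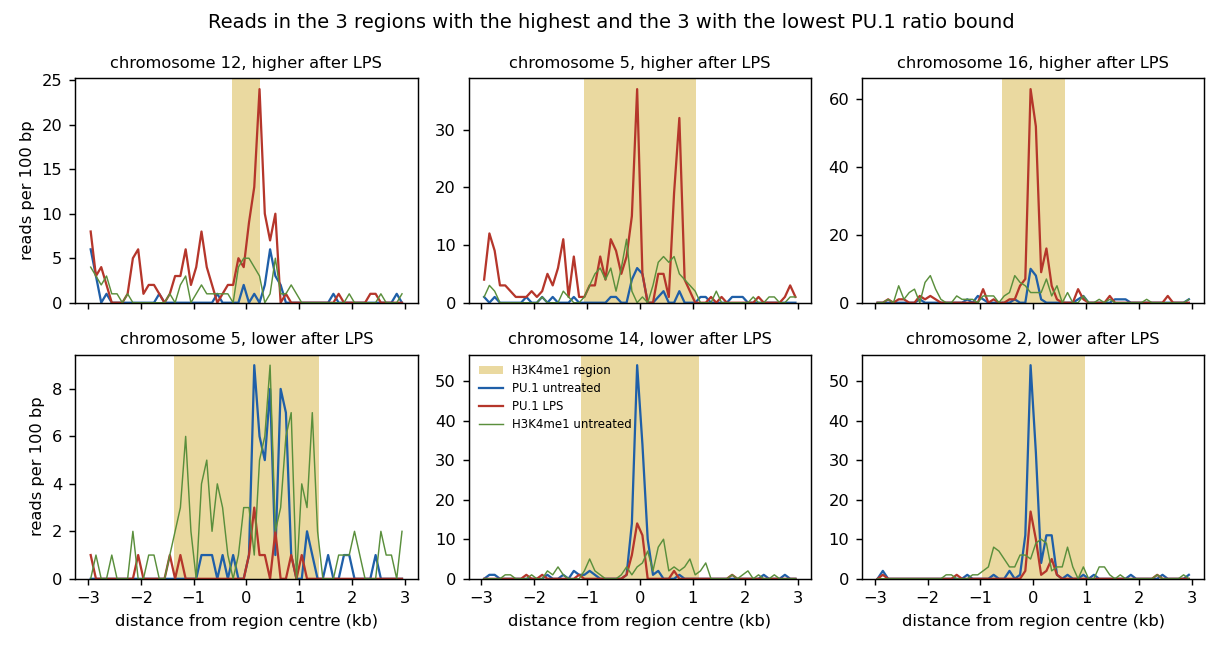
Reads per 100 bp of PU.1 untreated (blue), PU.1 LPS (red) and H3K4me1 untreated (green) against distance from the region centre, in the 3 regions with the highest lower bound (top) and the 3 with the lowest upper bound (bottom). Shading marks the H3K4me1 region, and the vertical scales differ. In the upper panels the LPS line peaks far above the untreated line, at 2 positions in the chromosome 5 region, and in the lower panels the untreated line is the higher one.

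All 7 lower regions held exactly 1 PU.1 site, as did 68 of the 82 higher regions and 16796 of all 23325 kept regions. The lowest upper bound was at chr5:64726549-64729288, with 54 untreated and 11 LPS reads (ratio 0.214, 0.101 to 0.414). At chr14:104344062-104346302 the counts were 122 and 34 (0.293, 0.194 to 0.431), and at chr2:160100936-160102881 they were 130 and 38 (0.307, 0.208 to 0.444). The chromosome 5 site was listed in untreated cells alone, while the sites on chromosomes 14 and 2 were still listed as peaks after LPS. In p300 untreated replicates 1 and 2 and LPS replicates 1 and 2, the reads were 21, 26, 9 and 9 on chromosome 5. They were 11, 53, 7 and 10 on chromosome 14 and 5, 28, 8 and 9 on chromosome 2. On chromosome 2 p300 was thus lower with LPS in the replicate 2 pair but not in the replicate 1 pair.

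The lower region with the most PU.1 reads was chr7:106821738-106824837, with 156 untreated and 50 LPS reads (0.337, 0.240 to 0.466) and p300 reads of 24, 70, 13 and 15. The last 3 lay on chromosomes 1, 3 and 10. At chr1:177589463-177590412 there were 64 and 17 reads (0.279, 0.153 to 0.482), and at chr3:21382897-21383479 34 and 7 (0.216, 0.0809 to 0.496). At chr10:79423421-79424843 there were 51 and 13 (0.268, 0.134 to 0.4996), an interval that ends just below 1/2. In these 3 regions p300 had 12 or fewer reads in each replicate. Of the 7 lower regions 4 held a listed LPS peak, and of the 82 higher regions 57 held an untreated one. A site in both lists lay in 4 of the 7, in 56 of the 82 and in 20512 of all 23325 kept regions. Such sites were less common among called regions than among all kept ones. The lists were called from the same reads as the regions, which favours this outcome, so these counts are a description.

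The marked regions with the most PU.1 were nearly equal between the libraries. The region with the most reads and the most sites, chr1:89519331-89557546, was 38216 bp wide and had 1570 untreated and 1480 LPS reads (ratio 0.990, 0.922 to 1.06). Its 9 sites had ratios from 0.883 to 1.19. At chr9:65380704-65404985 the counts were 1391 and 1445, and at chr16:25040782-25064728 they were 1175 and 1157, with ratios of 1.09 and 1.03. The widest region, chr15:77627733-77670506, had 1024 and 958 reads (0.983, 0.899 to 1.07). Each of these intervals lay far inside 2-fold.

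Similar totals could hide unequal sites. A region of 36190 bp, chr14:26281169-26317358, held 1020 reads untreated and 822 with LPS (ratio 0.847, 0.771 to 0.929) over 8 sites. The site nearest its start had 71 and 36 reads (0.533, 0.346 to 0.806), and the next ones had 120 and 77 (0.674) and 124 and 80 reads (0.678). Toward the other end, the sixth site had 57 and 78 reads (1.44, 1.01 to 2.06), the seventh 54 and 86 (1.67, 1.18 to 2.40) and the last, in the LPS list alone, 4 and 21 (5.52, 1.86 to 22.1). Its first 3 sites were thus lower and its last 3 higher than the median region, within 1 marked domain. The region with 8 sites at chr11:8472769-8508040 had 647 and 633 reads in all (1.03), with sites from 0.669 to 1.48.

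The ratios of narrow regions spread more widely than those of wide ones. The middle 90% of log2 ratios ran from -0.78 to 0.94 in 4354 regions under 1 kb and from -0.40 to 0.39 in 849 regions of 8 kb or more. Wider regions hold more reads, with a median of 604 against 70, so counting error alone narrows their ratios. After subtracting it, the SD of the log2 ratio was 0.40 under 1 kb, 0.38 from 1 to 2 kb, 0.34 from 2 to 4 kb, 0.27 from 4 to 8 kb and 0.22 from 8 kb up. The class medians stayed between -0.02 and 0.01. Regions of all widths thus centred on the same ratio, and the narrow ones differed more among themselves. Split at 2 kb and at matched read number, the difference was small or turned. With 160 to under 320 reads the SD beyond counting was 0.29 both under 2 kb and at 2 kb or more. With 40 to under 80 reads it was 0.43 and 0.38, with 80 to under 160 it was 0.38 and 0.36, and with 320 or more it was lower in the narrow regions (0.15 in 328 regions, 0.22 in 3100).

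Calls past 2-fold were found mostly in narrow regions. They made up 65 of 12064 regions under 2 kb (0.539%) and 24 of 11261 regions of 2 kb or more (0.213%), against 0.382% of all. The ratio of these shares was 2.53 (exact interval 1.56 to 4.22), and without merging of H3K4me1 peaks it was 1.53 with an interval that includes 1 (0.866 to 2.89). Within classes of equal read number the ratio was 1.86 (0.712 to 6.16) for 40 to under 80 reads, 1.83 (0.853 to 4.25) for 80 to under 160 and 2.85 (0.940 to 9.56) for 160 to under 320. Each of these intervals includes 1. With 320 or more reads the calls were 0 of 328 narrow and 3 of 3100 wide regions, so a difference by width at equal read number was not shown. None of the 849 regions of 8 kb or more was called, which allows a share of up to 0.353% by 3 counts and 0.434% by the exact upper bound, above the 0.382% of all regions. The bound itself depends on depth. With no scaling between the libraries, a region with 40 reads would need a ratio of 4.71 to be called higher. One with 600 reads would need 2.39.

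The number of PU.1 sites followed width, with a mean of 0.91 sites under 1 kb and 3.03 from 8 kb up. SD beyond counting was 0.36 in 16796 regions with 1 site, 0.33 in 3967 with 2, 0.30 in 765 with 3, 0.23 in 272 with 4 or 5 and 0.20 in 36 with 6 or more. At matched read number this order mostly turned. For 1 site and for more it was 0.43 and 0.40 with 40 to under 80 reads, 0.37 and 0.40 with 80 to under 160, 0.28 and 0.32 with 160 to under 320, and 0.18 and 0.24 with 320 or more. Calls made up 75 of the regions with 1 site (0.447%) and 13 of the 5040 with more (0.258%), a ratio of 1.73 (0.954 to 3.40). That ratio turned to 0.697 (0.309 to 1.77) among regions of 80 to under 160 reads, and with 320 or more reads the calls were 0 of 1425 regions with 1 site and 3 of 1999 with more. With other settings the ratio for all regions had intervals above 1, such as 1.77 (1.11 to 2.96) with all reads kept and 2.24 (1.15 to 4.87) with a shift of 50 bp. A difference in calls by site number thus rested on the setting and was not seen in every read class. The 1489 regions without a site centre had a median log2 ratio of 0.07 and 1 call. A PU.1 site overlapped 809 of them from outside.

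**Figure D3:**
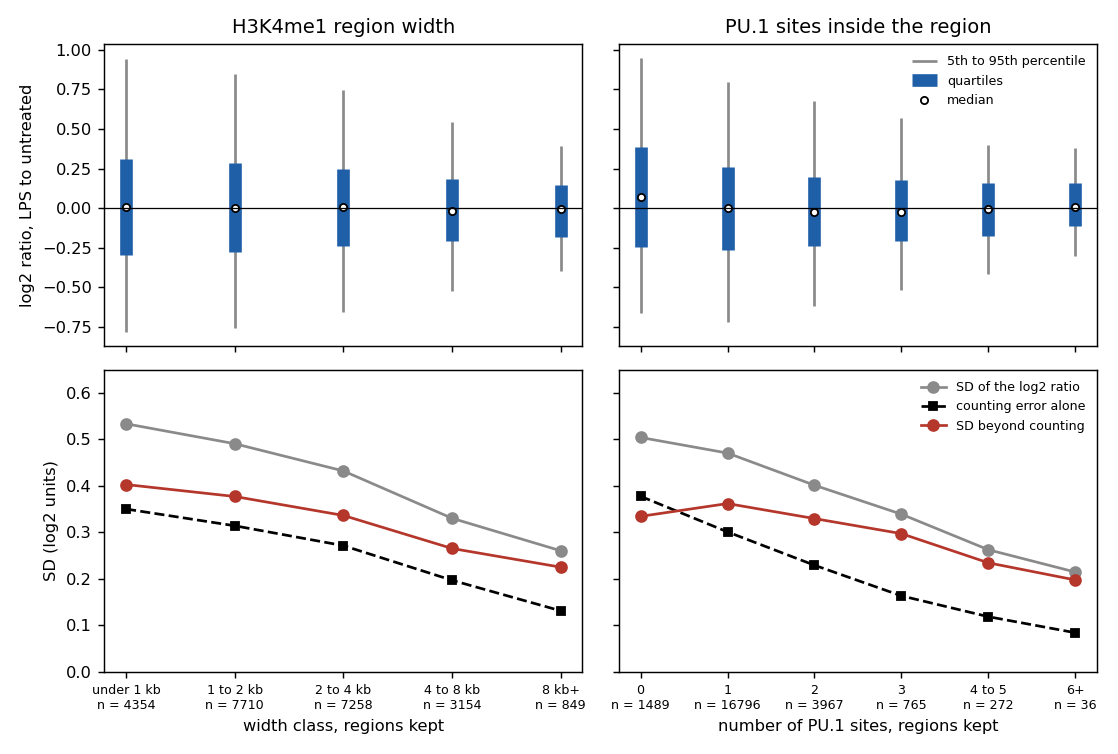
Top: log2 of the PU.1 read ratio (LPS over untreated) by H3K4me1 region width and by number of PU.1 sites (median, quartiles, 5th to 95th percentile over regions). Bottom: SD of the log2 ratio, the part from counting error and the part beyond it, which goes from 0.40 to 0.22 over the width classes.

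Which peaks a region held showed in its ratio, as the lists were called from the same reads. Regions whose sites were all in both lists numbered 18280 (78.4%) and had a median log2 ratio of -0.00, with 49 higher and 4 lower calls. The 535 regions with LPS-only sites alone had a median of 0.48 and 24 higher calls. The 660 with untreated-only sites alone had a median of -0.31 and 3 lower calls. An LPS-only site beside a site of both lists left the region near the median, at 0.10 over 848 regions. The LPS list gave more sites than the untreated list in 1398 regions, fewer in 1941 and an equal number in 19986 (85.7%).

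Sites of a region were only loosely tied. Of 3777 regions with exactly 2 sites of at least 20 reads, 2138 (56.6%) had both sites on the same side of the median ratio. At least 1 site had a ratio past 2-fold in 640 of them, both in the same direction in 42, and in opposite directions in 8. Neighbouring sites 500 bp to 1 kb apart in the same region had a Pearson r of 0.29 between their log2 ratios (926 pairs), and pairs at that distance with neither site in a region 0.18 (412 pairs). At 1 to 2 kb the values were 0.25 (1605 pairs) and 0.20 (477 pairs). At 2 to 4 kb they were 0.21 (1663 pairs) and 0.29 (545 pairs), with 0.23 between 2 regions (948 pairs). At 4 to 8 kb r was 0.22 within a region (599 pairs), 0.20 between 2 regions (2900 pairs) and 0.26 outside regions (817 pairs), and at 50 to 200 kb it was 0.06 between regions (1178 pairs). All pairs come from the same 2 libraries and carry counting noise. Read number was not matched, and at 2 to 4 kb the median site reads were 125.5 within a region and 76 outside. Pairs sharing a marked region had a higher r than pairs outside regions below 2 kb and a lower one from 2 to 8 kb. At 8 to 20 kb r was 0.19 between 2 regions (4125 pairs) and 0.09 outside regions (1792 pairs). At 20 to 50 kb it was 0.16 (2768 pairs) and 0.10 (2176 pairs). No interval of r was computed, so a change of order with distance was not shown. These are descriptions with no test.

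Marked regions near a higher region leaned the same way. Of 42 other kept regions with an edge under 5 kb from a higher region, 81.0% had a log2 ratio above 0, with a median of 0.39. From 5 to 20 kb the median over 90 regions was also 0.39, from 20 to 100 kb it was 0.11 over 386 regions, and from 100 to 500 kb it was 0.01 over 1115. Another higher region lay within 100 kb of 5 of the 82 (6.10%), and a higher region lay that near 503 of the 23243 other kept regions (2.16%).

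In higher regions the reads outside PU.1 sites were also more numerous in the LPS library. The 82 regions together had 298 untreated and 759 LPS reads outside every site (scaled ratio 2.68, 2.34 to 3.07) and 1950 and 7054 inside sites (3.80, 3.61 to 4.00). In the regions past neither bound both ratios were 1.01. The regions were called on the sum of these reads, so the values are a description. With reads in sites alone, 82 regions were called higher and 9 lower. By distance, the ratio around the 96 site centres of higher regions was 3.91 (3.63 to 4.21) within 100 bp, 3.14 (2.86 to 3.46) at 200 to 400 bp and 2.35 (2.11 to 2.62) at 1500 to 2000 bp, where windows can reach other sites.

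PU.1 was above input in the higher regions before LPS, though less than elsewhere. The log2 ratio of untreated PU.1 to input, scaled to distinct reads and with 1 read added, had a median of 1.30 in the 82 higher regions (quartiles 0.69 and 2.15). It was 2.37 over all kept regions (1.65 and 3.07). In the LPS library the medians were 3.24 and 2.23. The choice by ratio favours regions low in the untreated library, so the first difference is a description.

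The H3K4me1 of untreated cells had a slightly lower median in higher regions, which were also narrower (median width 1324 against 1945 bp). Its log2 ratio to input had a median of 2.40 (quartiles 1.99 and 2.83) in them and 2.57 (2.22 and 2.92) in the 23236 regions past neither bound. H3K4me1 reads per kb were 33.3 and 40.1. The quartile ranges overlapped widely. The difference in medians was -0.17 on the log2 scale. Its order-statistic interval, with the median of regions past neither bound taken as fixed, ran from -0.31 to 0. With H3K4me1 reads per kb, without input, the difference was -0.23 (-0.33 to -0.15), and with all reads kept -0.32 (-0.41 to -0.02). Over all kept regions the median log2 ratio to input was 2.38 under 1 kb and 2.52 from 1 to 2 kb, so narrow regions in general had lower values. The 7 lower regions had a median of 2.31.

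The shape of the mark around PU.1 differed more. Around sites of regions past neither bound, H3K4me1 within 100 bp of the centre was 0.815 times its level at 200 to 400 bp (exact interval 0.811 to 0.819), a dip at the bound position. In higher regions the ratio was 1.09 (0.991 to 1.20) over 96 sites, with no dip. In the 7 lower regions it was 1.23 (0.920 to 1.64), from 80 and 130 reads. Region width was not matched, and in narrow regions the windows at 200 to 400 bp can reach past the marked region. Untreated PU.1 within 100 bp of the centre was 47.8 reads per kb in higher regions. It was 185 in lower regions and 184 in regions past neither bound. Among sites in both lists the dip was shallower where PU.1 reads were fewer. The ratio was 0.799 over all 24380 of these sites but 0.939 for those with 40 to under 80 PU.1 reads. With 20 to under 40 reads it was 0.965. Sites listed after LPS alone had 0.923 and sites listed in untreated cells alone 0.912, so the mark before LPS had nearly the same shape at both. With 40 to under 80 PU.1 reads these values were 0.884 and 0.894. With 20 to under 40 reads they were 0.959 and 0.951. In these read classes the dip was thus not deeper at sites in both lists than at sites of 1 list. Intervals cover counting error only.

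**Figure D4:**
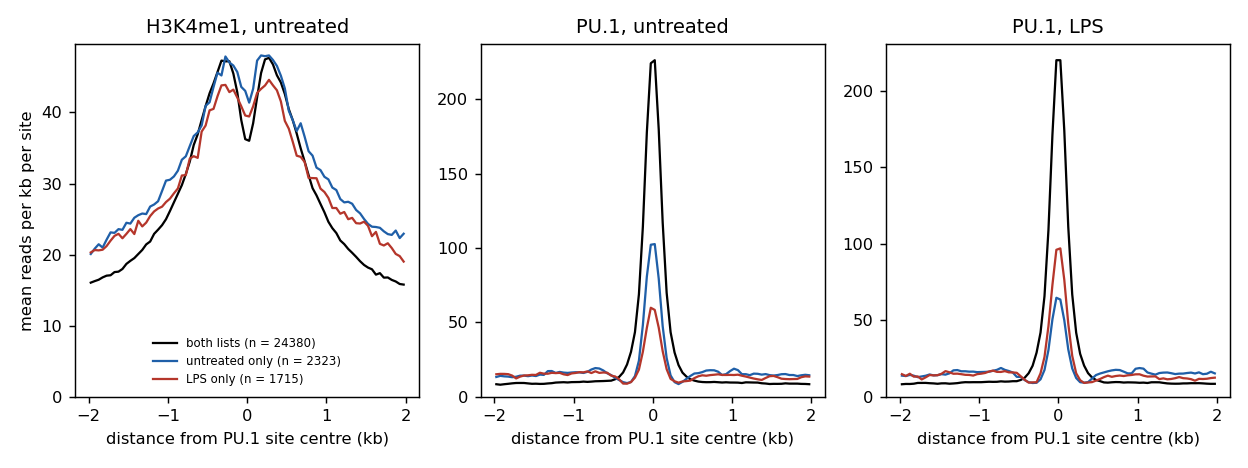
Mean reads per kb around PU.1 site centres in kept H3K4me1 regions, for H3K4me1 and PU.1 of untreated cells and PU.1 after LPS, by the peak list that holds the site. H3K4me1 dips at the centre in each class, most at the 24380 sites in both lists, which also had more PU.1 reads. Read number was not matched between the classes. The PU.1 panels show the class differences that define the lists.

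PU.1 peaks listed in 1 condition lay in marked chromatin less often than shared ones, and the share was lowest for peaks in the LPS list alone. Of 15146 peaks in the LPS list alone, 3547 (23.4%, exact interval 22.7 to 24.1) overlapped an H3K4me1 region. Of 14147 in the untreated list alone 4481 did (31.7%, 30.9 to 32.4), and of 59353 untreated peaks shared with LPS 31453 did (53.0%, 52.6 to 53.4). These 3 intervals did not overlap, but they treat peaks as independent and cover counting error only. Peak strength was not matched. In kept regions, sites of either list alone had a median of 37 PU.1 reads and sites in both lists 106. With peak scores of 100 or more the shares were 25.3%, 39.7% and 59.1% in the same order. H3K4me1 was measured before LPS only.

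Marked and unmarked PU.1 sites were compared with the same scale, taken from the H3K4me1 regions. On it the median log2 ratio of sites with at least 40 reads was -0.00 inside regions and 0.07 outside. This offset shifts the outside sites toward higher calls and away from lower ones. Among sites with at least 40 reads, 130 of 25222 in H3K4me1 regions were past 2-fold higher (0.515%) and 17 lower (0.0674%). Outside regions 148 of 17717 were higher (0.835%) and 0 lower (0.00%), which allows a share of up to 0.0169% by 3 counts and 0.0208% by the exact upper bound. Among sites of 40 to under 80 reads the higher shares were 0.600% (0.451 to 0.782) inside and 1.17% (0.965 to 1.40) outside. Among sites of 80 to under 160 reads they were 0.617% and 0.598%, with overlapping intervals. Among sites of 160 or more reads the order turned, with 0.301% (0.191 to 0.452) inside and 0.0763% (0.00925 to 0.275) outside. Scaled by background bins, the lower sites numbered 55 inside and 9 outside, and the higher ones 64 and 88.

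p300, which played no part in choosing or calling regions, was higher with LPS in most higher regions. In the 82 higher regions the median p300 reads were 7 and 9 in untreated replicates 1 and 2 and 12 and 30 in the LPS replicates, beside 7 input reads. The scaled LPS to untreated ratio was above 1 in 68 of the 82 for the replicate 1 pair and in 79 for the replicate 2 pair. Both pairs were above 1 in 66 (80.5%, exact interval 70.3 to 88.4), against 27.5% of all kept regions. Of the 24 higher regions with LPS-only sites alone, 15 had both pairs above 1, and of the 56 with a site in both lists 49 did. Of the 7 lower regions 4 had p300 lower in both pairs and 1 had it higher in both, against 26.5% of all kept regions lower in both.

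The relation ran over the whole range of PU.1 ratios. In 309 regions with a PU.1 log2 ratio under -1, the median p300 log2 ratio was -0.25 in the replicate 1 pair and -0.42 in the replicate 2 pair. It was 0.05 and 0.10 in 8866 regions from 0 to 0.5, 0.44 and 0.91 in 604 regions from 1 to 2, and 0.90 and 1.79 in 41 regions of 2 or more. p300 was higher in both pairs in 12.6%, 31.9%, 64.4% and 80.5% of these groups. The order was the same in both replicate pairs, and the differences were larger in replicate 2, whose libraries had more of their reads in kept regions (12.0% untreated and 10.2% LPS) than those of replicate 1 (5.61% and 6.43%). Regions are not replicates.

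**Figure D5:**
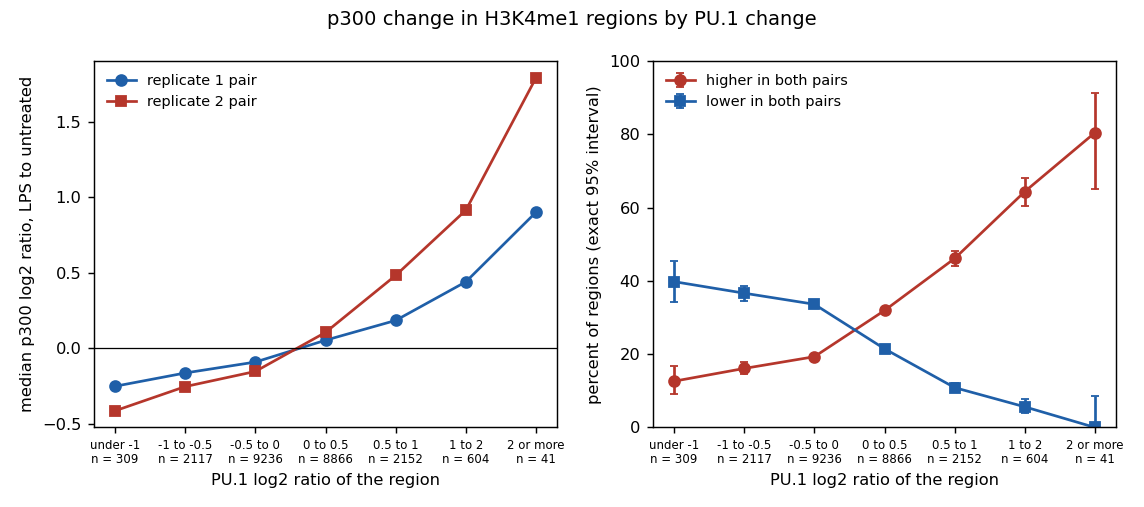
Left: median log2 of the p300 read ratio (LPS over untreated) in each replicate pair against the PU.1 log2 ratio class of the H3K4me1 region. Right: percent of regions with p300 higher or lower in both pairs, with exact 95% intervals. The share higher in both goes from 12.6% to 80.5% across the classes.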

How the data were processed

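The authors deposited aligned reads (position and strand, 36 bp by their coordinates) on mm9, per the submitters' processing notes, and MACS peak lists whose score is 10 times the -log10 p-value, per the file headers and the deposited column description. No source used here gives the aligner or the caller's version. Per the file headers, PU.1 peaks were called against a library named random and H3K4me1 peaks against input.

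Counts were made here. Reads repeating both position and strand were counted once, each read was placed 100 bp inward of its 5′ end, and PU.1 libraries were scaled by the median ratio over kept regions. The log2 ratio had 0.5 reads added to each library. The p300 replicates were paired by number and scaled by the median ratio over kept regions with at least 10 reads of that pair. Python 3.11.15, numpy 2.4.6 and scipy 1.17.1 were used, and the code was tested on simulated data. Named regions were the 8 higher with the highest lower bound, the 8 lower with the lowest upper bound (7 passed), the 3 with the most reads, the widest and the 3 with the most sites. Regions, classes and rules were chosen with earlier results of these data known. Motifs in PU.1 sites and genes near regions, planned for files with a genome of the same build, were not analysed here.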

Additional observations from a re-analysis of the deposited data

How the results depend on the processing

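All counts compare 1 library per condition. No paired analysis was possible because PU.1 had 1 library per condition, and H3K4me1 and input had 1 untreated library each. p300 ratios were formed within replicate numbers taken from the read files, and the labels do not say that a number marks a shared culture. The 15 named regions past 2-fold stayed past it under each of the 5 alternatives run on them, with the same direction. The higher ones were named for their high bounds, which favours this outcome. Scaling by distinct reads or background bins lowers every ratio, so no lower call could be lost under those scales. Regions called higher and lower numbered 144 and 17 with all reads kept, 50 and 12 with distinct reads as the scale, 32 and 23 with background bins, 51 and 4 with at least 80 reads, and 313 and 58 with bounds of 1.5-fold. Lower calls were 13 with at least 20 reads and 11 without merging, and higher calls 52 when peaks less than 3 kb apart were merged. The share within 2-fold was 93.8% with all reads, 94.2% with background bins, 95.3% with reads in PU.1 peaks alone, 92.9% and 97.6% with at least 20 and 80 reads, 94.9% without merging and 96.5% with merging at 3 kb. Fewer regions at a stricter minimum lower the counts by construction, and otherwise the cause was not tested. The ratio of called shares, under 2 kb to wider, was 1.53 (0.866 to 2.89, which includes 1) without merging and 1.49 (1.20 to 1.85) with bounds of 1.5-fold. The ratio for 1 site to more turned to 0.697 among regions of 80 to under 160 reads. It had no value at 40 to under 80 reads, and neither ratio had one at 320 or more, where 1 class had no call. With peak centres required inside regions, 27.8% of untreated-only, 20.2% of LPS-only and 46.7% of shared untreated peaks were in regions. With scores of 100 or more the shares were 39.7%, 25.3% and 59.1%, and with H3K4me1 peaks as listed 52.4% of shared peaks were. The H3K4me1 difference of higher regions was -0.17 on the log2 scale (-0.31 to 0). It was -0.23 (-0.33 to -0.15) with reads per kb without input and -0.32 (-0.41 to -0.02) with all reads. Scalings added after seeing the data gave 30 and 55 lower sites inside regions (distinct reads, background bins) and 3 and 9 outside, with 64 higher inside and 88 outside under background bins.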

Other observations

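PU.1 sites were also placed within the H3K4me1 domains themselves. In kept regions made of more than 1 listed H3K4me1 peak, 3731 of 19978 site centres (18.7%) lay in a gap between listed peaks, and such gaps made up 14.4% of the regions' width. The share was 19.9% for sites in both lists, 11.3% for sites in the untreated list alone and 14.0% for sites in the LPS list alone. The median log2 PU.1 ratio ran from -0.03 to 0.04 over the 20 chromosomes.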
